A study of Mus musculus with 6 samples.

Results

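The genes described here encode TRP channels, polycystins, mucolipins and the subunits of voltage-gated calcium channels. They were chosen by symbol from the expression table of immortalized mouse fibroblasts: rows of *Trpc*, *Trpm* or *Trpv* followed by a digit, *Trpa1*, *Mcoln*, *Pkd*, *Cacna*, *Cacnb* and *Cacng*. The rule found 46 of the 19078 genes, and 45 of them encode a channel subunit or a polycystin. The remaining row, *Trpc4ap*, encodes a protein that binds TRP channels and forms no pore. Of the 46 genes, 21 (45.7%) reached a mean of 10 normalized counts and 25 did not, whereas 67.7% of all genes in the table reached it. A normalized count is a gene's read count divided by the library's size factor, and each mean is the authors' mean over all 6 libraries.

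The libraries came from 3 samples of *Ms4a15* OE cells and 3 control samples. *Ms4a15* OE is a pooled line in which a guide RNA drives the endogenous *Ms4a15* gene through a CRISPR activation system. The control carries an empty lentiviral vector according to the study, is labelled wild type, and is called the parental MF line in the design. Both lines derive from immortalized fibroblasts in which both copies of *Gpx4* can be deleted by a tamoxifen-inducible Cre recombinase, and both were grown in DMEM with 10% fetal bovine serum. Nothing says whether the 3 samples of a group came from separate cultures. The mean used here pools both groups, so every level below describes the 6 libraries together. No difference between *Ms4a15* OE and control was tested. The mean of *Ms4a15* itself was 638 normalized counts over both groups and cannot check the labels.

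TRP channels are cation channels, many of them permeable to calcium, that open in response to lipids, temperature, mechanical force or ligands. Polycystin-1, a large receptor-like protein, assembles with polycystin-2, a TRP-related channel of the primary cilium and the endoplasmic reticulum, and mucolipins release calcium from lysosomes. Voltage-gated calcium channels consist of a pore-forming subunit from the *Cacna1* family, an extracellular subunit from the *Cacna2d* family and a cytosolic subunit from the *Cacnb* family, and some include a *Cacng* subunit. They are best known from nerve, muscle and endocrine cells. In fibroblasts, calcium entry is mostly attributed to store-operated channels and to TRP and mechanosensitive channels.

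Collagen and cytoskeletal genes that mark fibroblasts were among the most abundant: *Col1a2* had a mean of 135155 normalized counts and *Vim* a mean of 115135. Of the 12 fibroblast markers, 11 had a mean of at least 10, but the small proteoglycan genes *Dcn* and *Lum* were low, at 12.1 and 0.675. The epithelial marker *Epcam* had a mean of 0.176. At least 10 was also reached by 2 of 7 epithelial, 4 of 5 myeloid, 2 of 4 endothelial, 1 of 2 neuronal, 1 of 5 striated muscle and 1 of 2 sensory neuron markers that had a row. The share over all genes in the table was 67.7%. *Tubb3*, a neuronal tubulin, had a mean of 2463, and *Lyz2*, a myeloid lysozyme, had a mean of 534. The part of other cell types in the channel levels was not tested. The size factors of the libraries, recovered from the table, spanned 0.887 to 1.14, a 1.28-fold range. The total read count of each library is unknown.

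The channel genes were set against the whole table first. The median over the 46 genes was 6.44 normalized counts and the median over all genes was 237. Means of 1000 or more occurred for 5 of the 46 genes (10.9%) and for 35.0% of all genes. Another 12 lay between 100 and 1000, and 4 lay between 10 and 100. Below 10, 13 genes lay between 1 and 10 and 12 lay under 1. No gene lay between 28.5, the mean of *Trpm3*, and 120, the mean of *Trpm6*. At the minimum itself, *Trpv2* lay just inside at 13.1 and *Cacnb4* just outside at 9.83. Together the 46 genes took 0.0607% of all normalized counts. The 4 highest channel genes held 67.8% of the normalized counts on the 45 channel genes.

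**Figure D1:**
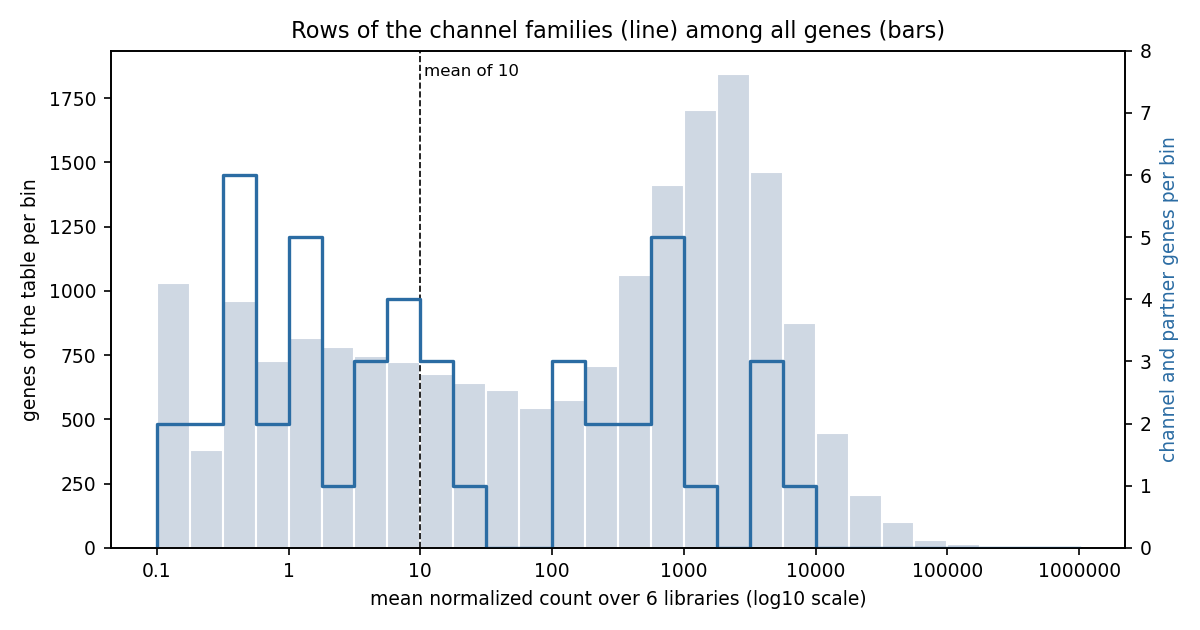
Grey bars give the number of all 19078 genes per bin of mean normalized count (log10 scale, left axis), and the blue line gives the number of the 46 genes of the channel families per bin (right axis). The channel genes fall into a lower and an upper range with no gene between 28.5 and 120, and 25 of them lie left of the dashed line at 10.

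The means above are not corrected for length. Genes were ordered and family members compared by their level per length, the mean divided by the length of the longest annotated transcript in kb. *Cacnb3* had the highest level of the channel genes chosen by the rule, with 1164 normalized counts per kb, followed by *Pkd2* with 615 per kb. *Trpc2*, *Cacng7*, *Mcoln1*, *Pkd1* and *Cacna2d1* came next, between 299 and 237 per kb. The median over the 16204 genes with a known length was 157 per kb, and 8 of the 46 genes lay above it. The intervals given below are 95% intervals and cover counting error only. The spread between libraries cannot be read from a mean of 10 or more. Intervals of levels are Poisson intervals and intervals of ratios are exact binomial ones. Both take a gene's reads as its mean times the sum of the size factors. This product came out slightly above the reads found for *Pkd1l2*, *Pkd2l1* and *Mcoln2*. The intervals of their ratios are therefore slightly too narrow. In the order of the 20 channel genes with a mean of at least 10, the counting intervals of 6 of 19 neighbouring pairs overlapped. These pairs were *Cacng7* and *Mcoln1*, *Mcoln1* and *Pkd1*, *Cacna1a* and *Cacnb2*, *Trpv2* and *Trpm1*, *Trpm1* and *Cacna1f*, and *Cacna1f* and *Trpm3*.

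**Figure D2:**
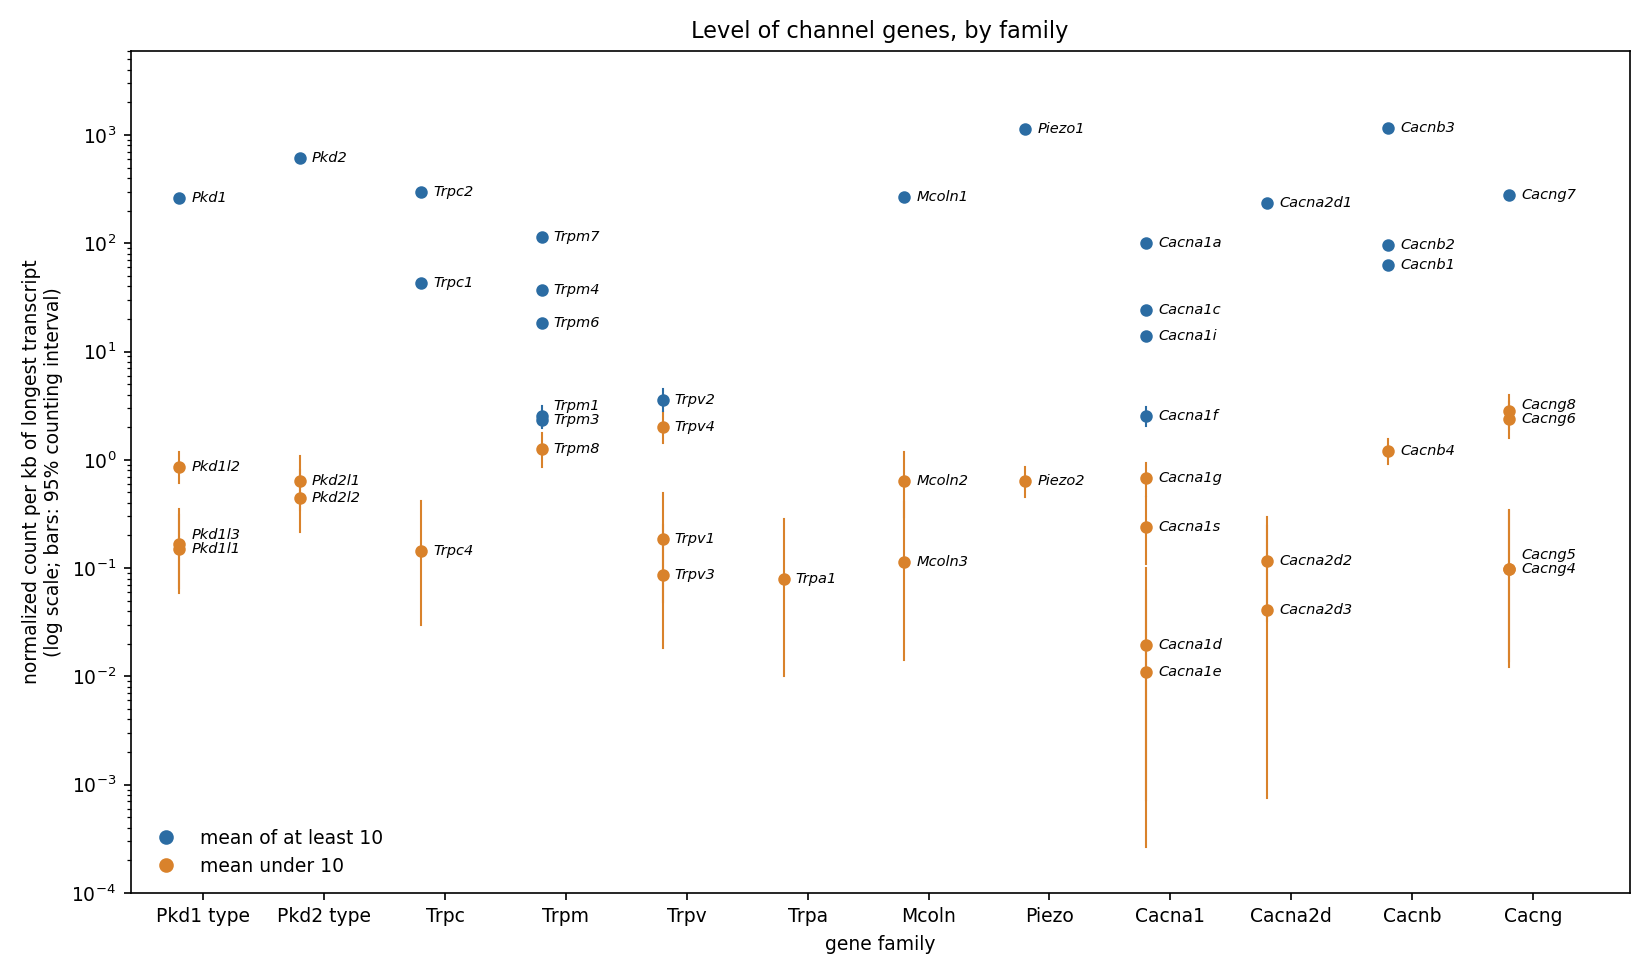
Each point is the level of 1 channel gene in normalized counts per kb of its longest transcript (log scale). Genes are grouped by family, and bars give the Poisson 95% counting interval. Blue points are genes with a mean of at least 10 and orange points genes below it. In the *Pkd1*, *Pkd2*, *Mcoln*, *Piezo*, *Cacna2d* and *Cacng* families a single blue gene stands 99.0-fold or more above the next gene, whereas *Trpm*, *Cacna1* and *Cacnb* hold several blue genes.

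In 5 families with several genes, 1 gene held over 98% of the level per kb summed over the family. These were the polycystin-1 type, the polycystin-2 type, the mucolipins, the *Cacna2d* subunits and the *Cacng* subunits. The start sites in the RefSeq promoter table often lay inside a gene's annotated span, and a stretch before such a start can hold exons. The family of *Cacna2d* subunits was the one whose highest gene and a paralog under 10 each had 1 start, placed at the annotated 5′ end of the gene with no annotated exon in the 250 bases before it. To show both sides of the minimum, these 250 bases (GRCm38.p6) are printed for *Cacna2d1* (chr5:15934441-15934690, plus strand) and *Cacna2d3* (chr14:29721865-29722114, minus strand), with CG dinucleotides in capitals.
*Cacna2d1*: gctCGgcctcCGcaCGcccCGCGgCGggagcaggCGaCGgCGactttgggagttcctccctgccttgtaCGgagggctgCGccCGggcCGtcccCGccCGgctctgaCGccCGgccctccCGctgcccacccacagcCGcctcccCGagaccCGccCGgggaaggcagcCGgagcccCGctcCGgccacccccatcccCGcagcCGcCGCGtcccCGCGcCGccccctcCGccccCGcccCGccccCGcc
*Cacna2d3*: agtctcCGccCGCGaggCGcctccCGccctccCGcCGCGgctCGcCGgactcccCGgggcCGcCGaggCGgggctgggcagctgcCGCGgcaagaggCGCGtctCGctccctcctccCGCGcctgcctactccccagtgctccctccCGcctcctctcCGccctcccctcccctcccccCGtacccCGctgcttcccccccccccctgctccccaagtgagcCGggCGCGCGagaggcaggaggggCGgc
These stretches hold 36 CG dinucleotides for *Cacna2d1* and 30 for *Cacna2d3*. The means of the 2 genes were 1761 and 0.151 normalized counts.

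By mean, both polycystin genes were among the highest channel genes. *Pkd1* (chr17:24549834-24596508), which encodes polycystin-1, had a mean of 3679 normalized counts (counting interval 3631 to 3728), and 85.7% of all genes had a lower mean. By level per kb, *Pkd1* lay above 57.5% of the genes with a known length. *Pkd2* (chr5:104459450-104505819), which encodes the channel-forming polycystin-2, had a mean of 3211 (3166 to 3257). The means of the 2 genes were close, but the longest *Pkd1* transcript has 14164 bases and the longest *Pkd2* transcript 5219 bases. Per kb, *Pkd2* was at 615 and *Pkd1* at 260, and the sum of the polycystin-2 type was 2.36 times that of the polycystin-1 type. By coding length this ratio was 3.87, and with no division by length it turned to 0.872. Exons of *Pkd1* overlap *Tsc2* on the opposite strand over 693 bases, 4.0% of the exon bases of *Pkd1*.

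The relatives of both polycystins were low. *Pkd1l2* had a mean of 6.35 and *Pkd1* was 302-fold higher per kb (counting interval 220 to 427), or 580-fold with no division by length. The reads of *Pkd1l2* ranged from 0 to 18 per library, a spread that the counting interval does not cover. *Pkd1l1*, whose product works with *Pkd2* in left-right patterning of the embryo, had 7 reads over the 6 libraries, and *Pkd1l3*, a taste-cell gene, also had 7. *Pkd2l1*, the channel of sour-sensing and cerebrospinal-fluid-contacting cells, had a mean of 2.25, and *Pkd2* was 965-fold higher per kb (575 to 1766). The reads of *Pkd2l1* ranged from 0 to 7 per library, which this interval does not cover either. *Pkd2l2* had 10 reads in all. Cilium and polycystin partners outside the rule were uneven: *Glis2*, a zinc finger gene of kidney cilia, had a mean of 1701, whereas *Pkhd1*, the gene of recessive polycystic kidney disease, had 2.21 and *Bicc1*, an RNA-binding regulator of *Pkd2*, had 3.95.

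Of the canonical TRP channels, 4 of 7 annotated genes had a row. *Trpc2* (chr7:102083116-102096396), which carries pheromone signals in the vomeronasal organ of the mouse, had a mean of 859 normalized counts (836 to 883), or 299 per kb. Its row is uncertain: 97.5% of its exon bases are also exons of *Xntrpc*, a gene on the same strand that joins it to *Xndc1*, and neither *Xntrpc* nor *Xndc1* has a row. Reads of *Trpc2* and of the joined transcript cannot be told apart. *Trpc1* (chr9:95705082-95750375), a widely expressed subunit that pairs with other TRPC proteins, had a mean of 196 (185 to 208), or 43.1 per kb. Per kb, *Trpc2* was 6.94-fold higher than *Trpc1* (6.52 to 7.40). It was 3.98-fold higher by coding length and 4.38-fold higher with no division. *Trpc4*, a receptor-operated channel, had 3 reads over the 6 libraries.

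The melastatin TRP family had the most genes over the minimum among the TRP families, with 5 of the 6 that had a row. *Trpm7* (chr2:126791565-126876230), a channel fused to a protein kinase that carries magnesium and zinc as well as calcium, had a mean of 812 (789 to 835). It held 64.9% of the family's summed level per kb. *Trpm4*, a channel that is opened by calcium but passes sodium and potassium, had a mean of 161 (151 to 172). *Trpm6*, the relative of *Trpm7* that takes up magnesium in kidney and intestine, had a mean of 120 (111 to 129). Per kb these 3 genes were at 114, 37.3 and 18.4. *Trpm3*, a heat- and steroid-gated channel, had a mean of 28.5 (24.4 to 33.1), and *Trpm1*, the channel of retinal bipolar cells, had 14.4 (11.5 to 17.8). The counting intervals of *Trpm3* and *Trpm1* per kb overlapped, at 2.32 and 2.52. The cold receptor *Trpm8* had a mean of 5.19, and *Trpm2* and *Trpm5* have no row.

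The vanilloid family was the lowest of the TRP families with a gene over the minimum. Only *Trpv2*, which is best known from immune cells and muscle, passed the minimum, with a mean of 13.1 (10.4 to 16.4). *Trpv4*, the osmotic and mechanical sensor, had a mean of 6.53 from 39 reads. Per kb, *Trpv2* was 1.77-fold higher than *Trpv4* (1.19 to 2.67). The capsaicin receptor *Trpv1* had 4 reads, its chromosomal neighbour *Trpv3* had 3, and the irritant receptor *Trpa1* had 2. These genes with 2 to 4 reads lay at or near the floor of 3 reads, so that their order was not detectable at this depth.

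The lysosomal channel gene *Mcoln1* (chr8:3500457-3515232) had a mean of 768 (746 to 791), or 266 per kb. Its paralogs *Mcoln2* and *Mcoln3* lie next to each other on chromosome 3 and had 9 and 2 reads in all. Per kb, *Mcoln1* was 420-fold higher than *Mcoln2* (228 to 877). Other channels of endosomes and lysosomes, *Tpcn1* and *Tpcn2*, had means of 395 and 612.

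The *Piezo* genes of force-gated channels have no row under their present symbols. RefSeq lists *Fam38a* and *Fam38b* as their older names, and both of these have a row. *Fam38a* (*Piezo1*, chr8:122481698-122551329) had a mean of 9379 (9302 to 9457), and 95.4% of all genes had a lower mean. Per kb it was at 1141, beside 1164 for *Cacnb3*, and their counting intervals overlapped. It overlaps *Ctu2* on the opposite strand over 24.6% of its exon bases. *Fam38b* (*Piezo2*), the touch receptor of sensory neurons, had a mean of 6.80 from 41 reads, and *Piezo1* was 1800-fold higher per kb (1327 to 2509).

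Among the pore-forming subunits of voltage-gated channels, 8 of 10 annotated genes had a row and 4 of them passed the minimum. *Cacna1a* (chr8:84388440-84640246), the P/Q-type channel of nerve terminals, had a mean of 802 (779 to 825) and, at 101 per kb, the highest level of the family. *Cacna1c* (chr6:118587240-119196418), the L-type channel of heart and smooth muscle, had a mean of 318 (304 to 332). *Cacna1i*, a low-voltage-activated T-type channel, had a mean of 136 (127 to 146), and *Cacna1f*, the L-type channel of photoreceptors, had 16.6 (13.5 to 20.2). Per kb, *Cacna1a* was 4.19-fold higher than *Cacna1c* (3.97 to 4.42) and held 70.9% of the family's summed level. By coding length it was 2.37-fold higher, with 61.0% of the sum, and with no division by length 2.52-fold. The longest *Cacna1c* transcript has 13162 bases and the longest coding sequence 6666.

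The other pore-forming subunits were counted in single reads. *Cacna1g*, another T-type channel, had a mean of 5.65 from 33 reads. *Cacna1s*, the voltage sensor of skeletal muscle, had 9 reads. *Cacna1d*, the L-type channel of pacemaker and endocrine cells, and *Cacna1e*, the R-type channel, had 1 read each over the 6 libraries. *Cacna1b* and *Cacna1h* have no row and were not analysed here.

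The auxiliary subunits were higher per kb than the pore-forming subunits, and for *Cacng* this direction turned with no division by length. The cytosolic *Cacnb* genes, whose products bring the pore to the surface and tune its gating, summed to 1324 normalized counts per kb, 9.28 times the 143 per kb of the *Cacna1* genes. With no division this ratio was 3.04. The *Cacna2d* genes summed to 237 per kb, 1.66 times the *Cacna1* sum, or 2.88 times by coding length and 1.38 times with no division. The *Cacng* genes summed to 283 per kb, 1.99 times the *Cacna1* sum, or 4.09 times by coding length and 0.489 times with no division.

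*Cacnb3* (chr15:98630840-98644529) had a mean of 3182 (3137 to 3227) and held 87.9% of the *Cacnb* sum per kb. *Cacnb2* (chr2:14603088-14987908) had a mean of 486 (469 to 504) and *Cacnb1*, the isoform of skeletal muscle, had 212 (201 to 224). Per kb, *Cacnb3* was 12.04-fold higher than *Cacnb2* (11.6 to 12.5). It was 8.86-fold higher by coding length and 6.55-fold higher with no division, both outside this interval, which covers counting error and not the choice of length. *Cacnb4*, the isoform of cerebellar neurons, had a mean of 9.83.

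*Cacna2d1* (chr5:15934691-16374511), the target of gabapentin, had a mean of 1761 (1728 to 1795). *Cacna2d2* had 4 reads and *Cacna2d3*, whose promoter is printed above beside that of *Cacna2d1*, had 1 read over the 6 libraries. The level of *Cacna2d1* per kb was 2024-fold that of *Cacna2d2* (790 to 7431), and this interval included the 1800-fold gap between *Piezo1* and *Piezo2*.

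*Cacng7* (chr7:3332955-3368221), a subunit that also regulates AMPA-type glutamate receptors, had a mean of 615 (595 to 635), or 278 per kb. The genes after it on chromosome 7 belong to the same family: *Cacng8* (chr7:3390683-3415648) begins 22.5 kb downstream and *Cacng6* (chr7:3424195-3435667) another 8.55 kb further. They had means of 5.33 and 4.72. *Cacng7* was 99.0-fold higher per kb than *Cacng8* (70.02 to 145). *Cacng5* and *Cacng4*, neighbours on chromosome 11, had 2 reads each, and *Cacng1*, *Cacng2* and *Cacng3* have no row.

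Genes whose products act on these channels were read from lists. Of 21 genes of calcium entry and release, 13 had a mean of at least 10 and 8 had a mean of 1000 or more. Over all genes in the table, 67.7% reached 10 and 35.0% reached 1000. The highest levels per kb were 1018 for *Tmem63b* and 588 for *Tmem63a*, channels gated by osmotic force, and 668 for *Itpr3*, a receptor that releases calcium from the endoplasmic reticulum. The 3 ryanodine receptor genes, whose products release calcium in muscle, had means between 0.959 and 4.39. Per kb, the store-operated channel genes *Orai1*, *Orai2* and *Orai3* were at 100.3, 568 and 208, and their sensors *Stim1* and *Stim2* were at 251 and 324. Of 8 inhibitors and adaptors of voltage-gated channels, 5 had a row and 4 reached 10. The highest levels per kb were 61.8 for *Gem* and 29.6 for *Rrad*, small GTP-binding proteins that inhibit the channels, and 19.5 for *Stac3*, an adaptor of muscle. Of 19 partners of TRP channels and polycystins, 18 had a row, 14 reached 10 and 12 reached 1000. The highest levels per kb were 19813 for *Calm2*, which encodes the calcium sensor calmodulin, and 8700 for *Fkbp4*, an immunophilin. *Trpc4ap* (chr2:155634271-155692384), itself on this list, had a mean of 7420 (7352 to 7489) and, at 1899 per kb, the highest level of the 46 genes.

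For means under 10 the listed decimals fixed the reads of each library. Of the 6164 such genes in the table, 6159 could be split into whole reads in only 1 way within 6e-10 of the listed mean, among them all 25 channel genes. The libraries are named A to F in ascending order of their size factors. No label ties them to a group, so they were not compared by group. Reads in all 6 libraries were found for 6 of the 25 genes. At least 10 reads in all were found for 9 genes, and 10 genes had 3 reads or fewer in all. The same counts over the other split genes were not made, so these numbers are not read as a trait of the channel genes. A library with no read of a gene allows up to 3 reads, or 2.64 to 3.38 normalized counts depending on the library.

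*Trpv4* had 7, 8, 4, 8, 7 and 5 reads in libraries A to F, and *Piezo2* had 5, 6, 8, 8, 6 and 8. *Cacng8* had 6, 6, 2, 7, 6 and 5 reads, and *Trpm8* had 5, 3, 2, 6, 9 and 7. The ratio of variance to mean over the libraries, which is near 1 for counting error alone, was 0.536 for *Trpv4*, 0.211 for *Piezo2*, 0.606 for *Cacng8* and 0.903 for *Trpm8*. For these genes the spread between libraries was no larger than counting error gives. They were set beside genes with a mean under 10 and within 2-fold of theirs, whose median ratios were 1.69 to 1.74. A higher ratio was found for 90.9% of genes around *Trpv4*, 99.1% around *Piezo2*, 87.6% around *Cacng8* and 75.5% around *Trpm8*. *Cacna1g* had 12, 6, 2, 3, 4 and 6 reads, a ratio of 2.91, with library A the highest. *Cacng6* had 4, 10, 1, 5, 6 and 2 reads, a ratio of 2.43, with library B the highest. Among genes with a mean under 10 and within 2-fold of theirs, 26.9% around *Cacna1g* and 32.6% around *Cacng6* had a higher ratio. The median ratios were 1.69 and 1.64. Genes with a mean of 10 or more were not split and could not enter these comparisons.

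*Cacnb4* had 14, 17, 1, 20, 2 and 3 reads in libraries A to F. Its reads were high in A, B and D and low in C, E and F, and its ratio of variance to mean was 8.37. *Pkd1l2* had 6, 12, 0, 18, 1 and 0 reads, with a ratio of 9.31. Among genes with a mean within 2-fold of theirs, the median ratio was 1.76 around *Cacnb4* (893 genes) and 1.71 around *Pkd1l2* (1461 genes), and 4.26% and 1.78% of these genes had a higher ratio.

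**Figure D3:**
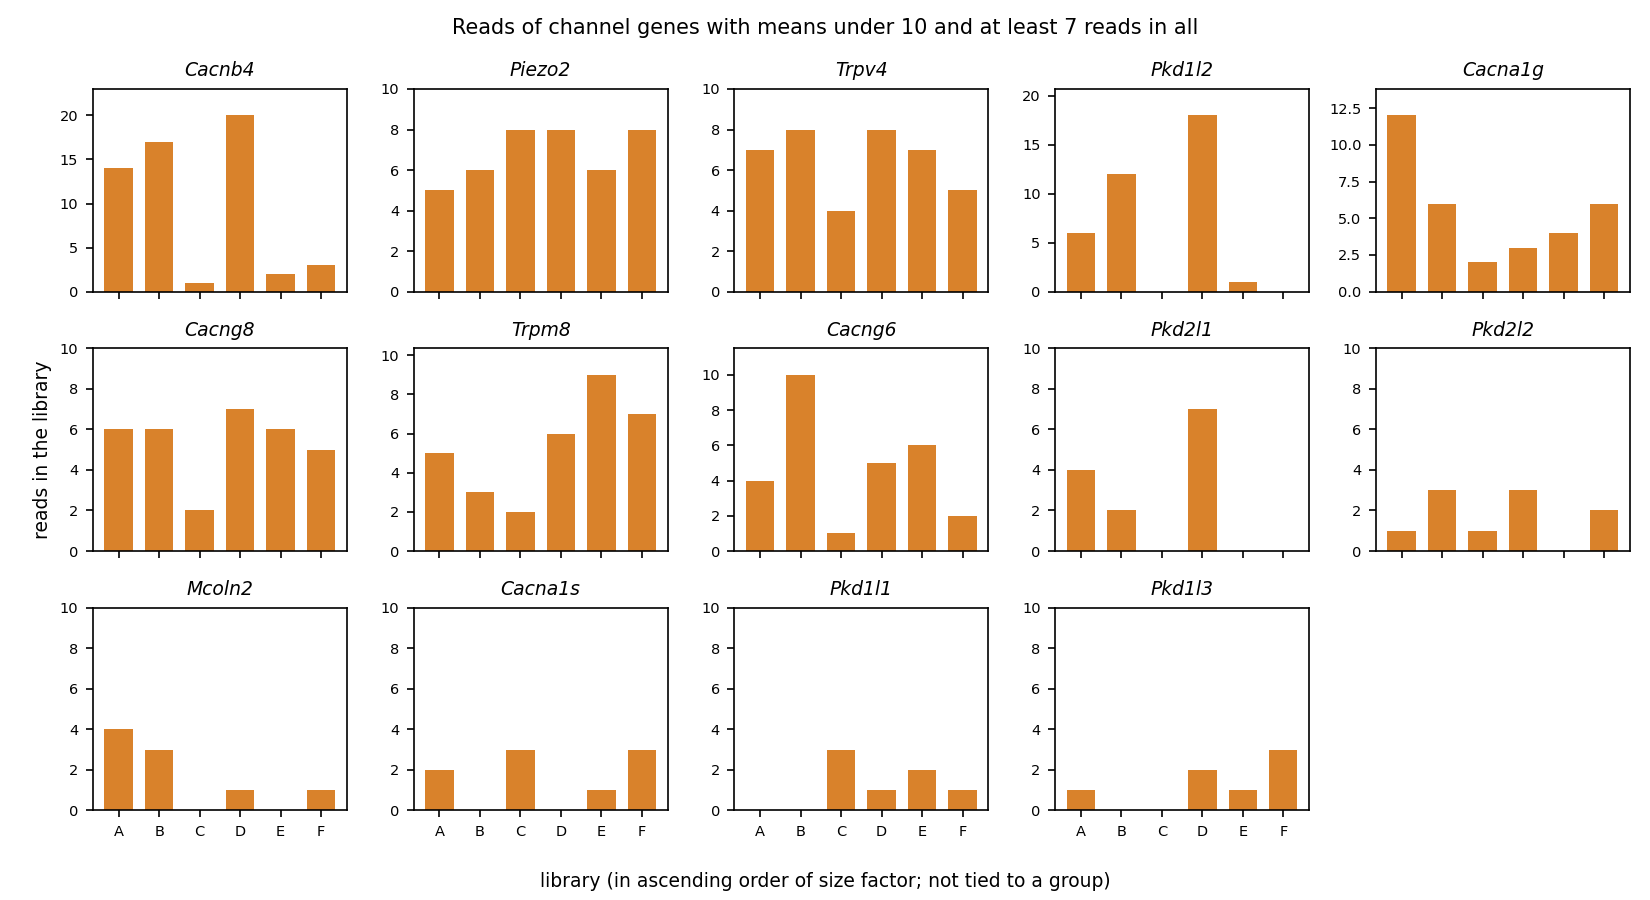
Bars give the reads of each channel gene with a mean under 10 and at least 7 reads in all, in each of the 6 libraries A to F, which are ordered by size factor and not tied to a group. *Cacnb4*, *Pkd1l2* and *Pkd2l1* have most of their reads in libraries A, B and D, whereas the reads of *Trpv4*, *Piezo2* and *Cacng8* are spread more evenly over all 6.

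RefSeq promoters of 300 bases, 250 before and 50 after a start site, were found for 38 of the 46 genes. A single start was listed for 28 of the 38. Where a gene had several, the one with the most CG dinucleotides was taken, which favours genes with several starts. The start taken lay within 100 bases of an annotated transcript start for 31 genes, and within 100 bases of the annotated 5′ end of the gene for 16. For 22 genes the 250 bases before the start taken held annotated exon bases. The 18 channel genes with a mean of at least 10 had a median of 21.5 CG dinucleotides and a range of 4 to 57. The 19 with a lower mean had a median of 11 and a range of 1 to 63. The median over all 27025 genes with a promoter in the RefSeq table was 8. Of these genes, 12610 have a row in the expression table, whereas all channel genes have one. The 2 ranges of channel genes overlapped almost wholly, and the lowest of the 18, *Trpc2*, had exons over all 250 bases before its start. At least 15 CG dinucleotides were present for 12 of the 18 genes (66.7%) and 8 of the 19 (42.1%), and in 37.1% of all promoters. The difference was not tested. Among genes with 1 start, *Cacna2d3*, with 1 read in all, had 41 CG dinucleotides and *Pkd2*, with a mean of 3211, had 9. The letters GGGCGG, on either strand, were present for 10 of the 18 and 9 of the 19 genes, and in 37.3% of all promoters. The letters TATAAA, on either strand, were present for 0 of the 18 and 3 of the 19 genes, *Pkd1l2*, *Trpm8* and *Trpc4*, and in 13.7% of all promoters.

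**Figure D4:**
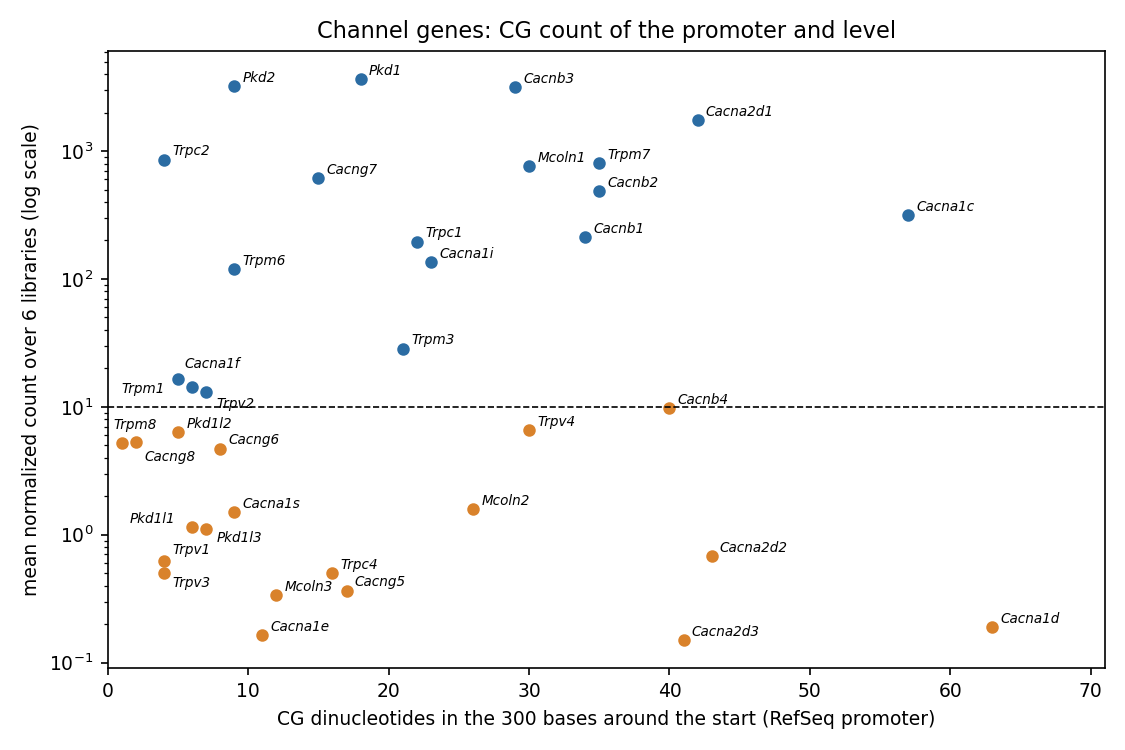
Each point is 1 channel gene with a RefSeq promoter, with the number of CG dinucleotides in 300 bases around the start on the horizontal axis and the mean normalized count (log scale) on the vertical axis. The dashed line marks a mean of 10. Genes above it (blue) range from 4 to 57 CG dinucleotides and genes below it (orange) from 1 to 63.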

How the data were processed

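Poly(A) RNA of 3 *Ms4a15* OE and 3 control samples was sequenced. According to the methods, the authors aligned reads with STAR to mm10, counted reads with HTSeq-count and ran DESeq2 on both groups, whereas the submitters' processing notes also name TopHat, Cufflinks and Cuffdiff. The deposited table gives each gene's normalized signal, its count over the library's size factor averaged across the 6 libraries, and this value alone was used. Its other columns hold the fold change, standard error, p-values and direction of the authors' own comparison and were not used, so that no contrast between groups is given. Tests planned on counts of labelled libraries were not run.

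The genes and lists were chosen with earlier results of these data known. All genes with a mean of at least 10 were named, and of lower genes the highest of each family and paralogs of genes above 10. Partner lists were counted and up to 3 of their highest genes named, some genes are not reported here, and other genes of the lists were named after their values were seen. Symbols were matched to GENCODE vM21 (GRCm38), through RefSeq synonyms where needed, for 16204 genes. Levels per kb used the longest transcript, with coding length and no division as alternatives. RefSeq promoters were found for 66.1% of the genes of the table. Channel genes were set beside all promoters of the RefSeq table, including those of genes with no row. A comparison with the genes of the table alone was not made. Means under 10 were split by finding the values that 1 read in a single library gives and solving for whole reads within 6e-10. The split was tested on simulated data: of 5430 simulated means, 5428 were split, all of them correctly. Intervals of levels are Poisson 95% intervals, and intervals of ratios are exact binomial 95% intervals. In both, the mean times the sum of the size factors stood for a gene's reads. Python 3 with pandas, numpy and scipy was used.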

Additional observations from a re-analysis of the deposited data

How the results depend on the processing

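The number of the 46 genes over the minimum was 21 at a mean of 10, 27 at 5, 18 at 20, 17 at 100 and 20 without *Trpc4ap*. Of the 5 channel genes with the highest level per kb of the longest transcript, 4 were also among the 5 highest by coding length and 3 by the mean with no division by length. The gene with the highest level in a family was the same on these 3 scales in each family, but the order of family sums was not. With no division by length the *Cacng* sum fell to 0.489 times the *Cacna1* sum and the polycystin-2 sum to 0.872 times the polycystin-1 sum, from 1.99 and 2.36 per kb. Its share of the family's sum moved from 87.9% to 85.9% by coding length and 81.8% with no division for *Cacnb*, from 87.4% to 79.9% and 81.3% for *Trpc*, from 64.9% to 66.3% and 71.2% for *Trpm*, and from 70.9% to 61.0% and 62.6% for *Cacna1*. It moved from 98.1% to 98.5% by coding length for *Cacng* and from 99.5% to 99.8% with no division for the polycystin-1 type. More than 3 reads in all were found for 15 of the 25 genes under 10, and for 13 to 15 when any 1 library was left out. The same count over the other split genes was not made. No paired analysis was possible because the mean carries no replicate numbers and no result comes from a test. DESeq2, a test without a filter on low counts and fits without single replicates were not run for lack of labelled counts. The total depth of the libraries is unknown, the spread between libraries is unknown for means of 10 or more, and a gene with 3 reads or fewer cannot be ranked among its relatives.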

Other observations

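The reads of some low channel genes fell unevenly over the 6 libraries, which no label ties to a group. *Pkd2l1* had 4, 2, 0, 7, 0 and 0 reads in libraries A to F, in ascending order of size factor. *Mcoln2* had 4, 3, 0, 1, 0 and 1. In both, as in *Cacnb4* and *Pkd1l2*, most reads were in libraries A, B and D and few in C, E and F. *Pkd1l1*, with 0, 0, 3, 1, 2 and 1 reads, and *Cacna1s*, with 2, 0, 3, 0, 1 and 3, had most of their reads in C, E and F. These genes were singled out after their values were seen, with 7 to 13 reads each, and the values are given without a test.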
